A study of Mus musculus with 4 samples.

Results

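A subset of the XN4 line of neural stem cells (NSCs) was examined whose single cells held transcripts of several of 6 genes, namely *Spp1*, *Ptprn*, *Fosl1*, *Tnc*, *Nptx1*, and *Abcb1b*. A cell was a member with at least 1 read of at least 3 of these genes and without reads of both *Mki67* and *Top2a*, transcripts of dividing cells. By this rule 126 cells were members, out of 3927 XN4 cells in the normalized table and 15255 cells of 4 NSC lines in all. The reference was 2498 XN4 cells with no read of any of the 6 genes, which also lacked reads of both *Mki67* and *Top2a*. Another 613 nondividing cells had 1 or 2 of the 6 genes, and 690 cells had both *Mki67* and *Top2a*.

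XN4 is a mouse line of the 129/Sv strain, derived from epiblast stem cells with 10 µM XAV, an inhibitor of tankyrase that lowers Wnt signaling, from supplier B. Of the other lines, XN1 was made with 10 µM XAV from supplier A, CN4 with 2 µM CHIR, which raises Wnt signaling by inhibiting GSK3, and KN1 with neither. Media for all lines held EGF and FGF2, each at 10 ng/ml. Dissociated cells were stored in the preservative CellCover in the cold before capture on a BD Rhapsody cartridge, and each line gave 1 library. Since cells of 1 library are not replicates, no test was made, and the intervals given are exact (Clopper-Pearson) 95% intervals that cover counting error only. The values count reads and not molecules.

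Spp1 encodes osteopontin, a secreted phosphoprotein that cells bind through integrins and CD44. Fosl1 (Fra-1) is a subunit of AP-1, the transcription factor that Fos and Jun proteins form downstream of growth factor and stress signaling through the ERK and JNK kinases. Abcb1b is a P-glycoprotein that pumps drugs out of cells, Tnc (tenascin C) is a matrix protein of developing and injured tissue, Nptx1 is a neuronal pentraxin, and Ptprn is a membrane protein of dense core vesicles. Neural stem cells in culture with EGF and FGF2 are commonly recognized by Sox2, Pax6, Nestin (*Nes*), and Fabp7.

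On the GRCm38 genome, *Spp1* lies at chr5:104435118-104441050 and *Abcb1b* at chr5:8798147-8866315, both on the plus strand. *Fosl1* lies at chr19:5447547-5455946 on the plus strand. *Ptprn* (chr1:75247027-75264502), *Tnc* (chr4:63959785-64047015), and *Nptx1* (chr11:119538719-119547753) lie on the minus strand. The 6 genes are thus on 5 chromosomes. Apart from *Nptx1*, each overlaps at least 1 other annotated gene, which is *Ccdc85b* on the other strand for *Fosl1* and a predicted gene on the same strand for *Spp1*, and reads of overlapping genes may not be told apart.

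The bases just before the start of 3 genes are shown with the motif of AP-1, since Fosl1 is an AP-1 subunit. They are *Spp1*, the rule gene found in the most members, *Hmga2*, the gene outside the rule that is described first below, and *Lif*, a cytokine gene and the only one with a match among the genes looked up. The sequences are from RefSeq on the build GRCm38.p6, 5′ to 3′ on the strand of the gene, at chr5:104434861-104435110 (*Spp1*, plus), chr10:120476470-120476719 (*Hmga2*, minus), and chr11:4257318-4257567 (*Lif*, plus). Capitals mark the AP-1 motif TGANTCA, searched on both strands, which read the same for this motif.
Spp1: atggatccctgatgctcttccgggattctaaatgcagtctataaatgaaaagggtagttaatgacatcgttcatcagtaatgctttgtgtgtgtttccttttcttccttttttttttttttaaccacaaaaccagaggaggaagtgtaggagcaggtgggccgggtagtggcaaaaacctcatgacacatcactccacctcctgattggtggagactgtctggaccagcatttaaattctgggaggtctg
Hmga2: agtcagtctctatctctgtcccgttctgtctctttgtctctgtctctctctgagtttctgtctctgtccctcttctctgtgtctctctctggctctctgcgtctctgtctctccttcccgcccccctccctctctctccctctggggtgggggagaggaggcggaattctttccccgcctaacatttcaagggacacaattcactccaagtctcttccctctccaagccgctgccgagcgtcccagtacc
Lif: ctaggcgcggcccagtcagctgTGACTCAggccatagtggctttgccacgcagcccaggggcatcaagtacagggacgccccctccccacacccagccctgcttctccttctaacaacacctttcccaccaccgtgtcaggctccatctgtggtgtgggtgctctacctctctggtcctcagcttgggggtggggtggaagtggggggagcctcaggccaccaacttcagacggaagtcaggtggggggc
The *Lif* window had 1 match, which began 228 bases before the gene start, and the *Spp1* and *Hmga2* windows had none. Of 17 genes looked up that had a window, among them the rule genes *Abcb1b*, *Spp1*, *Ptprn*, and *Tnc*, 1 had a match. The motif was in 2565 (7.81%) of 32851 windows of 300 bases (250 before and 50 after a start) in the whole table. Counted by gene, it was near 2425 (8.97%) of 27025 genes of that table, 55 (7.71%) of the 713 genes with a window that were higher in the members in both sets of cells described below, 26 (4.93%) of the 527 that were lower, and 312 (5.48%) of the 5697 genes compared. These are matches of letters, not sites bound by the factor.

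*Spp1* was captured in 113 (89.7%) of the 126 members, *Ptprn* in 107 (84.9%), *Fosl1* in 78 (61.9%), *Tnc* in 75 (59.5%), *Nptx1* in 71 (56.3%), and *Abcb1b* in 51 (40.5%). These values chose the members and are a description. Both *Spp1* and *Ptprn* were found in 96 members (76.2%), and both *Spp1* and *Fosl1* in 69 (54.8%), so that the name of the subset holds for just over 50% of it. The level of *Spp1* among members ran from 0 to 80.8 reads per 10000 reads of the cell, with a median of 11.9. The median was 1.81 for *Ptprn* and 0.807 for *Fosl1*, and the highest value was 33.6 for *Tnc* and 26.0 for *Abcb1b*.

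*Spp1* was not particular to members, as it was captured in 551 (17.0%) of the 3237 nondividing XN4 cells, and 343 of them had none of the other 5 genes. The part of free RNA in such single captures was not tested. Of the nondividing cells, 2498 had 0 of the 6 genes, 497 had 1, 116 had 2, 53 had 3, 36 had 4, 30 had 5, and 7 had 6. Just inside the threshold, among the 53 cells with 3 genes, *Spp1* was in 44, *Ptprn* in 40, and *Fosl1* in 23. Just outside, among the 116 cells with 2 genes, *Spp1* was in 95, *Ptprn* in 71, and *Fosl1* in 13.

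Each rule gene was also counted in cells chosen by the other 5 genes alone, with at least 3 of them against none of them, at like read depth. *Fosl1* was in 54 (53.5%, 43.3 to 63.5) of 101 cells chosen in this way and in 0 of 101 cells without the other genes, which allows a share of up to 3.59%. *Tnc* was in 51.9% against 2.88%, and *Nptx1* in 49.1% against 4.72%. *Abcb1b* was in 32.7% against 0 of 110 cells, which allows up to 3.30%. *Ptprn* was in 77.9% against 6.98%, and *Spp1* in 84.1% against 20.7%. As the 6 genes were chosen on these data, this too is a description.

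The members were 3.89% (3.25 to 4.62) of the nondividing XN4 cells, and this share rose with reads per cell. They were 5 (0.440%) of 1137 cells under 5000 reads, 17 (1.73%) of 980 cells from 5000 to 10000 reads, 49 (6.48%) of 756 cells from 10000 to 20000 reads, and 55 (15.1%) of 364 cells with more. The median depth was 18326 reads in members and 5831 in the reference. Members and reference cells were therefore drawn in equal numbers within 20 strata of reads, which gave 123 cells each with medians of 18020 and 17790 reads. The remaining 3 members found no partner, and levels and ratios below are from the matched cells. The share of cells with a transcript was counted after each cell was thinned to 4000 reads, which left 120 members and 119 reference cells. Shares by the number of rule genes and the neighbors of members used every member that had 4000 reads, which were 123 cells.

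At matched depth, members and reference differed little in measures of RNA quality. Mitochondrial reads were a median 14.9% of all reads in members and 14.4% in the reference, and ribosomal protein reads were 5.78% and 7.11%. The nuclear RNA *Malat1* had medians of 106 and 97.2 reads per 10000. The number of genes found in 4000 reads was 2056.5 and 2039. No doublet caller was run.

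The table of all reads of the same library held 8741 cells, of which 4814 were not in the normalized table. Among the 3871 nondividing cells of this second set, 139 (3.59%) met the rule, and 123 were matched to reference cells in the same way. They are other cells of the same culture and library, not a replicate.

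Of 7140 genes captured in at least 10% of either matched group, 1318 (18.5%) had a level at least 1.5 times higher in members, and 1166 (16.3%) had one at least 1.5 times lower, together 34.8%. The median ratio over all 7140 genes was 1.01. Of the 7140 genes, 947 reached the capture limit only in members and 733 only in the reference, which favors a difference in these genes. Of the 6193 captured in at least 10% of reference cells, 741 were higher and 1162 lower. These 6193 still hold the 733 captured only in the reference, so the count lower is partly set by that limit. By at least 2 times, 644 (9.02%) were higher and 549 (7.69%) lower, and by at least 5 times 130 (1.82%) and 105 (1.47%). In both sets of cells 904 genes (12.7%) were higher and 698 (9.78%) were lower. Of the genes higher in the normalized table, 68.6% were also higher by 1.5 times in the second set, and of those lower 59.9% were also lower. By at least 10 times, 63 genes (0.882%) were higher and 32 (0.448%) lower. The counts below for groups of genes are to be read against these shares. Genes named below that reached the capture limit only in members include *Cdkn2b*, *Pdgfa*, *Mmp9*, *Timp1*, *Itga6*, *Dusp5*, *Etv4*, *Egr3*, *Klf4*, *Ier3*, and *Myc*. Others are given in their places. Besides these, *Ass1*, *Homer1*, *Mitf*, and *Tpx2* reached the limit only in members, and *Fosb*, *Postn*, *Cxcl12*, *Dpep1*, *Alpl*, *Tyms*, and *Cnp* only in the reference.

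**Figure D1:**
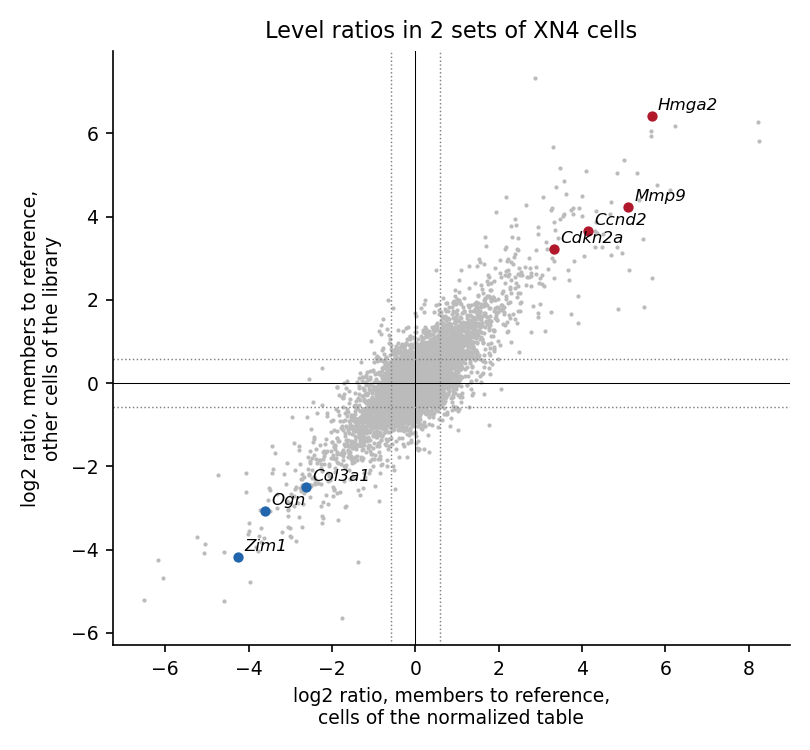
Log2 ratio of the mean level in members to that in depth-matched reference cells, for genes captured in at least 10% of either group (points), in the cells of the normalized table (x axis) and in the other cells of the library (y axis). Dotted lines mark 1.5 times. Genes with no read in one of the groups are not drawn. *Hmga2*, *Mmp9*, *Ccnd2*, and *Cdkn2a* lie at the upper right and *Zim1*, *Ogn*, and *Col3a1* at the lower left in both sets.

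On each side 15 genes were taken by the size of the ratio, and each passed 1.5 times in both sets of cells. Apart from *Hmga2*, the higher genes reached the capture limit only in members. The gene with the most reads among those higher was *Hmga2*, which encodes a DNA-binding protein of the chromatin of embryonic cells. Its level per cell ran from 0 to 78.7 reads per 10000 in members, with a median of 18.3, and from 0 to 6.88 in the reference, with a median of 0. Among the matched cells, members thus held most of the high values, although the ranges overlapped. The mean was 21.8 against 0.427, a ratio of 51.1 in these cells and 85.0 in the second set. It was captured in 84.2% of members (76.4 to 90.2) and 11.8% of reference cells (6.58 to 19). *Hmga2* lies at chr10:120361275-120476469 and overlaps genes on the other strand and the microRNA gene *Mir763* on its own strand, whose reads may not be told apart from its own.

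Genes of the cytoskeleton were among the others. *Tes* (testin, a focal adhesion protein) had a mean of 1.84 against 0.0369 reads per 10000, 50.1 times higher, and was captured in 39.2% against 0.840% of cells. *Ahnak2* had 2.31 against 0.0525, 44.1 times higher (11 times in the second set), and *Nav2*, which encodes a protein of growing neurites, 1.11 against 0.0219, 50.5 times higher. *Inka2* had 41.5 times the reference level (21.2 in the second set). *Kif1a*, a kinesin of axonal transport, had 74 reads in members and 3 in the reference, and its ratio in the second set was 3.55. *Arl4c*, a small GTPase, had 160 reads against 1.

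The rest of the list was made up of surface and secreted proteins, *Hmga1*, and *Gdpd1*. *Cd34*, a sialomucin of progenitor and endothelial cells, had 0.95 against 0.0127 reads per 10000, 74.7 times higher, and *Cd80*, a ligand of CD28 and CTLA4 on T cells, 0.498 against 0.00890, 56.0 times higher (27.3 in the second set). *Steap1*, a membrane metalloreductase family member, was 39.8 times higher. *Ly6a* (Sca-1) had 76 reads against 1, and as its family has near-identical copies, this value is uncertain. The cytokine *Lif* had 161 reads against 1 and was captured in 18.3% of members (11.9 to 26.4) and 0 of 119 reference cells. *Areg* (amphiregulin, a ligand of the EGF receptor) had 128 reads against 0. *Hmga1*, a relative of *Hmga2* with processed copies in the genome that make it uncertain, had 272 reads against 0, and 26.7% of members had it (25% of members and 0.855% of the reference in the second set). *Gdpd1* had 120 reads against 3, and its ratio in the second set was 5.78. *Cd34*, *Hmga1*, *Nav2*, and *Tes* overlap other annotated genes as well. Several of these transcripts were in few members, as *Areg* was captured in 10.8% and *Arl4c* in 11.7% of them.

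The lower genes were led by transcripts that few members held, and apart from *Plagl1* they reached the capture limit only in the reference. *Plagl1*, an imprinted zinc finger gene, had the most reads of them. Its level ran from 0 to 21.4 reads per 10000 in members (median 0.420) and from 0 to 89.7 in the reference (median 16.3). The mean of 1.40 against 22.1 was a ratio of 0.0633 (0.0975 in the second set), and 29.2% of members against 90.8% of reference cells had the transcript. *H19*, an imprinted lncRNA, had 0.0669 against 2.26, and *Zim1*, another imprinted zinc finger gene, 0.137 against 2.61.

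Genes of matrix and surface proteins were also in this list. *Aspn* (asporin, a small proteoglycan) had a mean of 0.0502 against 1.22 reads per 10000, and *Crispld2*, a secreted protein, 0.126 against 2.04. *Emcn* (endomucin) had 0.244 against 3.86 and was captured in 9.17% against 58.0% of cells. *Mme* (neprilysin, a peptidase) had 0.0753 against 1.25, *Aoc3* (an amine oxidase) 0.0252 against 0.832, and *Adra2a* (an adrenergic receptor) 0.0125 against 0.894. *Inmt*, a methyltransferase, had a ratio of 0.0598, *Lfng*, a glycosyltransferase that modifies Notch, 0.0378, and *Asxl3* 0.0645. *Slco1a4* (an organic anion transporter) had 1 read in members against 143, *Clec3b* 3 against 124, and *Capn6* 3 against 208. The ratio was nearer to 1 in the second set for *Mme* (0.0603 here and 0.223 there), *Inmt* (0.163 there), *Lfng* (0.216 there), and *Adra2a* (0.0139 and 0.0527). It was also nearer to 1 by at least 2 times for *Capn6* (0.0267 and 0.0765), *Clec3b* (0.0151 and 0.0390), *Slco1a4* (0.0109 and 0.0271), *Aoc3* (0.0303 and 0.0688), and *H19* (0.0296 and 0.0594). *Aspn*, *Capn6*, *Crispld2*, *Aoc3*, *Plagl1*, and *H19* overlap other genes, whose reads may not be told apart.

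Capture of several genes outside the rule differed step by step with the number of rule genes in a cell. *Hmga2* was captured in 8.28% of thinned cells with 0 rule genes, 17.1% with 1, 47.3% with 2, 70.6% with 3, 94.3% with 4, and 93.3% with 5. *Ccnd2* (cyclin D2) and *Ass1* (argininosuccinate synthase, which makes the precursor of arginine) were also captured more often with more rule genes, up to 77.1% and 76.7% for *Ass1* with 4 and 5, though 3 of the 7 cells with 6 (42.9%) had it. *Ass1* had a mean of 4.90 against 0.191 reads per 10000 in members and reference, 25.7 times higher. *Plagl1* went from 91.0% with 0 rule genes to 71.5% with 1, 53.6% with 2, 31.4% with 3, and 26.7% with 5.

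*Apod* (apolipoprotein D) and *Ogn* (osteoglycin), which are among the most abundant of the lower genes, were chosen for this count after their values were seen, as were *Ass1* and *Ccnd2*. *Hmga2* and *Plagl1* were taken from the genes ranked by ratio. For each of these genes, the direction between cells with 0 and with at least 3 rule genes was thus set by the choice. *Apod* was captured in 90.5% of cells with 0 rule genes, 85.4% with 1, 64.5% with 2, 29.4% with 3, 2.86% with 4, 10.0% with 5, and 14.3% with 6, the last of only 7 cells. Its mean was 2.47 in members against 33.1 in the reference, and that of *Ogn* 1.33 against 16.2. One member held 91.0 reads per 10000 of *Apod* while the median member had none, so members differed among themselves in this transcript. By these shares over groups, cells with 1 or 2 rule genes lay between reference and members. The subset thus had no sharp edge at 3 genes, but such shares do not tell single cells apart. The cells of these groups were thinned but not matched. Over all 2498 reference cells mitochondrial reads were a median 31.5% of all reads, against 14.8% in the 126 members, and their part in these steps was not tested. The median depth was 5831 reads in cells with 0 rule genes, 11217 with 1, 16496 with 2, 16681 with 3, and 16116 with 4, before thinning.

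**Figure D2:**
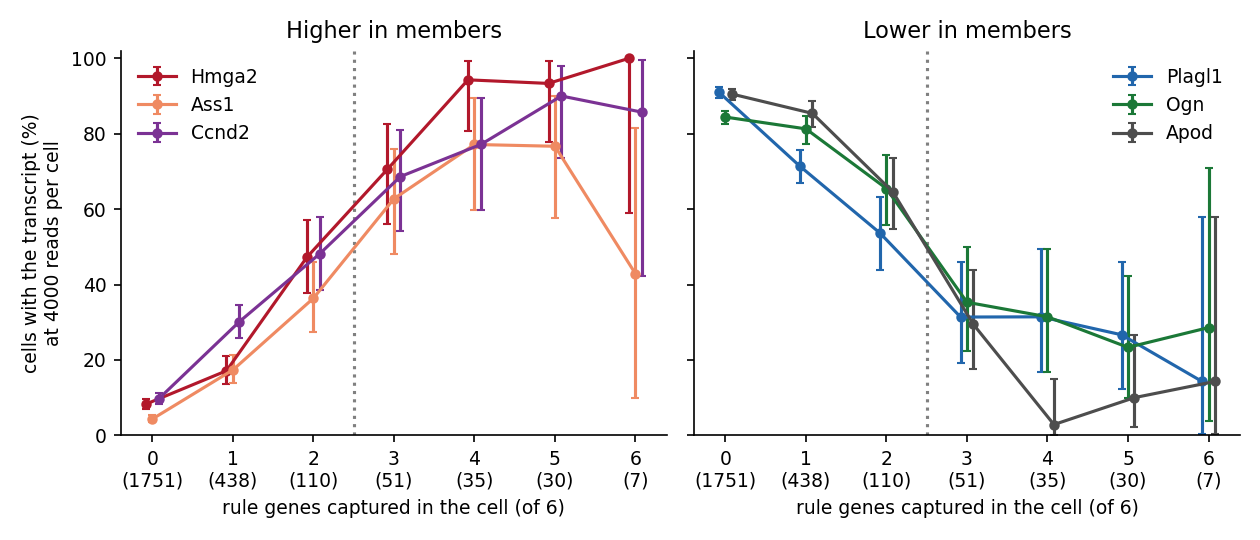
Share of nondividing XN4 cells with the transcript at 4000 reads per cell (y axis) by the number of rule genes captured in the cell before thinning (x axis, number of thinned cells in parentheses). Points are shares, bars exact 95% intervals for counting error, and the dotted line the threshold of the rule. *Hmga2* climbs from 8.28% to 94.3% and *Apod* descends from 90.5% to 2.86% between 0 and 4 rule genes, and is at 10.0% and 14.3% with 5 and 6.

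When the 6 rule genes were left out, each cell was compared with the others by 30 principal components of 2000 variable genes after thinning. Members made up 3.99% of the thinned cells but a mean of 56.4% of the 30 nearest neighbors of a member (median 60.0%, range 0 to 96.7). In matched reference cells the mean was 0.364%, and 8 of 119 had any member as a neighbor. Of 123 members, 81 had members for at least 50% of their neighbors, and 4 had none. The median was 40.0% for the 51 members with exactly 3 rule genes and 71.7% for the 72 with 4 or more. Nondividing cells with 2 rule genes had a mean of 11.8%, a median of 3.33%, and a range of 0 to 73.3. Those with 1 rule gene had a mean of 2.69%, a median of 0, and a range of 0 to 80. Some cells of both kinds thus lay among the members, and most did not.

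**Figure D3:**
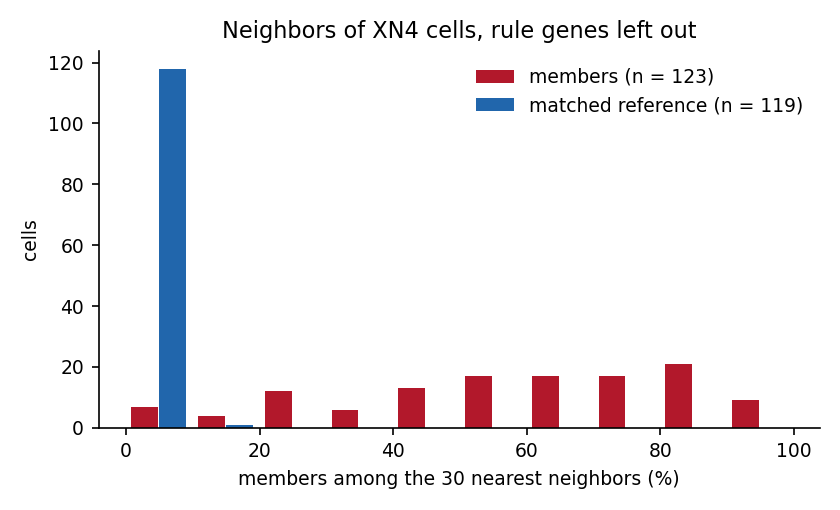
Number of XN4 cells (y axis) by the share of members among their 30 nearest neighbors (x axis, in steps of 10%), found without the rule genes at 4000 reads per cell. Members (n = 123) spread from 0 to 96.7%, and matched reference cells (n = 119) lie at 10% or lower.

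The p53 protein raises *Cdkn1a*, *Mdm2*, *Ccng1*, and other genes after DNA damage or oncogene signals, and the *Cdkn2a* locus encodes p16 and Arf, inhibitors linked to senescence. Of 11 genes of this list, 10 were higher in members and 1 lower, in both sets of cells, against 12.7% and 9.78% of all genes. Of the 8 that were captured in at least 10% of reference cells, 7 were higher and 1 lower. The median ratio was 5.53 (5.96 in the second set). *Cdkn1a* (p21) had a mean of 7.52 against 0.770 reads per 10000, 9.77 times higher, and was captured in 72.5% (63.6 to 80.3) against 16% (9.90 to 23.8) of cells. *Cdkn2a* had 4.41 against 0.436, 10.1 times higher, and *Cdkn2b* (p15) 1.57 against 0.132, 11.9 times higher. *Cdkn2b* reached the capture limit only in members (42.5% against 5.04% of cells). *Mdm2*, the ubiquitin ligase that degrades p53, had 9.94 against 1.1, and *Ccng1* (cyclin G1) was captured in 96.7% against 52.1% of cells.

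The exception was *Cdkn1b* (p27), an inhibitor that accumulates in quiescent cells, with 0.873 against 2.82 reads per 10000, a ratio of 0.310. The summed level of the list ran from 7.66 to 189 in members (median 44.8) and from 0 to 43.8 in the reference (median 8.93), so that the ranges overlapped while the medians were well apart. At 4000 reads the median sum was 7.50 reads per 10000 in cells with 0 rule genes, 12.5 with 1, 27.5 with 2, 42.5 with 3, 50.0 with 4, and 40.0 with 5 or 6. Transcripts of a pair of D-type cyclins, which drive cells out of G1, were also higher. *Ccnd1* is from a list of Wnt targets and *Ccnd2* from a list written after the values were seen, so the pair is a description. *Ccnd1* had 11.7 against 1.15, 10.1 times higher, and *Ccnd2* 9.56 against 0.543, 17.6 times higher.

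Cells with both *Mki67* and *Top2a* were outside the rule, but 43 of the 690 (6.23%) had at least 3 of the 6 genes. In 40 of them matched to as many dividing cells with none of the 6 genes, with medians of 25792 and 25910 reads, genes of the comparison above were compared again. *Hmga2* was in 87.5% against 12.5% of cells, *Cdkn1a* in 75% against 20.0%, *Cdkn2a* in 47.5% against 7.50%, and *Plagl1* in 50.0% against 97.5%. Cells with the rule genes were thus found in both dividing and nondividing cells. With *Mki67* and *Top2a* also counted at 4000 reads, at least 3 of the 6 genes were in 9 of 512 dividing cells (1.76%, 0.807 to 3.31). They were in 74 of 2569 nondividing cells (2.88%, 2.27 to 3.6), and the intervals overlap. Some cells with both *Mki67* and *Top2a* before thinning are counted as nondividing here, so these groups are mixed and differ from those above. Of 5 S-phase markers compared within the nondividing cells, none passed 1.5 times, but in the second set *Tyms* (0.473), *Mcm6* (0.538), and *Mcm4* (0.614) were lower. *Hmgb2*, a chromatin protein high in G2 to M, had ratios of 0.398 and 0.386, while *Tpx2*, the other G2-M marker compared, had 1.23 and 0.976.

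Of 6 AP-1 genes compared without *Fosl1*, 3 were higher and 2 lower, with a median ratio of 1.61. *Jun* had 2.99 against 0.547 reads per 10000, 5.47 times higher, and *Fosl2* (Fra-2) 1.28 against 0.456, 2.79 times higher. *Junb* was 1.95 times higher but 1.09 times in the second set. *Fos*, the subunit induced first and for a short time by growth factors, had 0.755 against 2.19, a ratio of 0.345, and *Fosb* had a ratio of 0.501. With dividing cells kept, the ratio of *Fosb* was 1.02.

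Of 10 immediate early genes, 6 were higher and 0 lower. Of these 10, 5 reached the capture limit only in members, and of the other 5 that were captured in the reference 1 was higher. *Egr3* was 9.16 times higher, *Klf4* 6.74 times, *Ier3* 4.70 times, and *Myc* 2.54 times, and each of these reached the limit only in members. The higher gene that was captured in the reference was *Btg2*, 3.20 times higher and in 45.8% against 16.0% of cells. *Egr1*, the most abundant of them, had 7.73 against 8.60 reads per 10000, within the threshold. The immediate early genes thus did not move as one group.

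Feedback genes of ERK signaling showed both directions, with 6 of 12 higher, 2 lower, and a median ratio of 1.63. Of the 9 captured in at least 10% of reference cells, 3 were higher and 2 lower. *Dusp5*, a phosphatase of nuclear ERK, was 4.55 times higher, *Etv4*, an ETS factor induced by FGF, 4.22 times, and *Dusp6*, a phosphatase of ERK in the cytoplasm, 1.93 times. *Dusp5* and *Etv4* reached the capture limit only in members, while *Dusp6* was captured in 37.8% of reference cells. The Sprouty genes, inhibitors of receptor tyrosine kinase signaling, had *Spry1* at 0.513 against 3.86, a ratio of 0.133, and *Spry2* at 1.10 against 2.68, a ratio of 0.410. *Spry4* did not pass 1.5 times (0.922). Among 5 EGF, FGF, and PDGF receptor genes, *Egfr* was 1.95 times higher but 1.34 times in the second set, and *Pdgfra* had a ratio of 0.495.

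**Figure D4:**
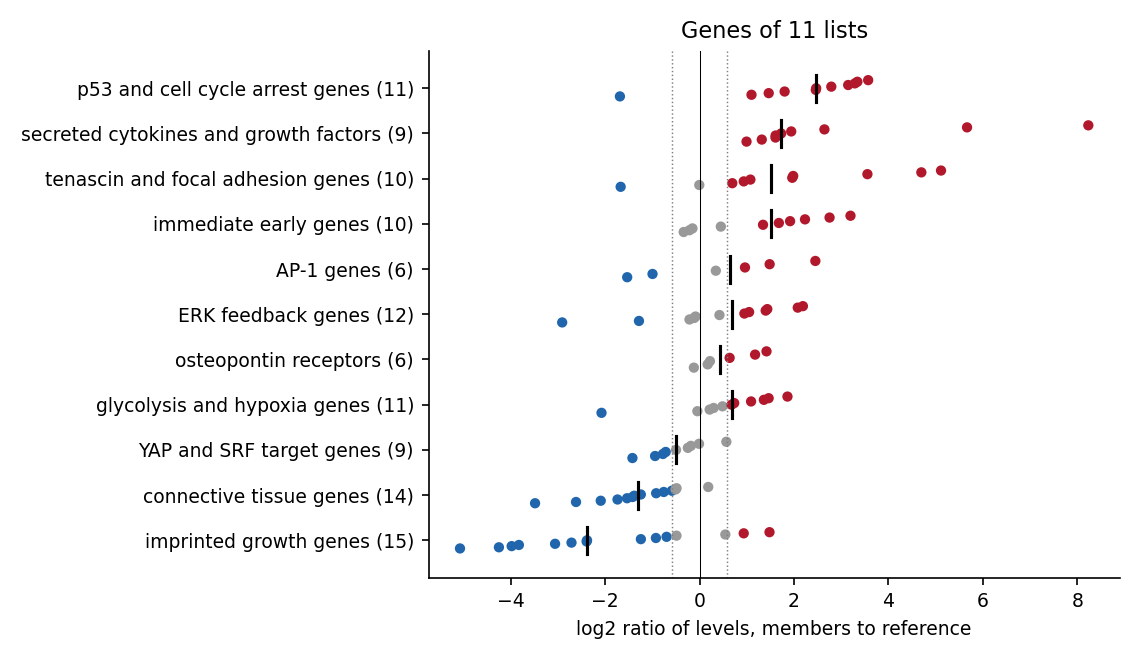
Log2 ratio of the mean level in members to that in reference cells for each gene (points) of 11 lists, with the number of genes compared in parentheses. Red points are at least 1.5 times higher, blue points at least 1.5 times lower, black bars are medians, and dotted lines mark 1.5 times. Points of the p53 list lie to the right except *Cdkn1b*, and the connective tissue and imprinted lists lie mostly to the left.

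Of 17 listed cytokines and growth factors, 9 were captured often enough to compare, and 9 were higher in members in both sets of cells, with a median ratio of 3.31. Of these, 4 reached the capture limit only in members, so that the count is partly set by that limit, and the other 5 were each captured in the reference. One of the 4, *Cxcl5*, had a ratio of 0.986 when at least 4 rule genes were asked for and of 0.456 without *Spp1* in the rule, so that not all 9 were higher under those rules. *Fgf2*, below the limit, had 74 reads in members and 99 in the reference. *Ccl2* and *Ccl7*, chemokines that attract monocytes, had 17.1 against 5.6 and 8.54 against 2.8 reads per 10000, each 3.05 times higher. *Pdgfa*, a ligand of PDGF receptors, had 1.90 against 0.304, 6.25 times higher, *Vegfa* was 3.84 times higher, and *Cxcl1* 2.49 times. *Pdgfa* was another of the 4 genes that reached the capture limit only in members (35.8% against 7.56% of cells). *Csf1*, a growth factor of macrophages, had 6.31 against 3.17. Others were near the detection limit, as the interleukin gene *Il6* had 12 reads in 2 members and 5 reads in 1 reference cell.

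The list was not uniform over cells. Its summed level ran from 0 to 204 in members and from 0 to 245 in the reference, where the medians were 35.8 and 5.94. The ranges of the groups thus overlapped in full. After their values were seen, genes of prostaglandin synthesis were added as a list, in which 3 of 4 were higher. *Ptgs2* and *Ptges* reached the capture limit only in members, and of the other 2 genes 1 was higher. *Ptgs2* (cyclooxygenase 2) had 2.59 against 0.150, 17.2 times higher, and *Ptges* (a prostaglandin E synthase) 2.21 against 0.109, 20.3 times higher. In the second set *Ptgs2* was 33.9 times and *Ptges* 14.7 times higher.

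Of 6 receptor genes of osteopontin, 3 were higher and 0 lower, with a median ratio of 1.36. *Cd44* had 1.66 against 0.623 reads per 10000, 2.67 times higher, *Itgb5* was 2.26 times and *Itgav* 1.55 times higher. *Itgb5* reached the capture limit only in members, and of the 5 genes captured in the reference 2 were higher. *Itgb1*, the most abundant, was 8.63 against 9.39. Among 10 other genes of tenascin, focal adhesion, and matrix turnover, 8 were higher and 1 lower, with a median ratio of 3.0. One of the 8, *Timp3* (1.91 times), had a ratio of 0.996 without *Spp1* in the rule. Of the 6 captured in at least 10% of reference cells, 4 were higher and 1 lower. *Mmp9*, a gelatinase, had 1.98 against 0.0572, 34.6 times higher (18.7 in the second set), and was captured in 38.3% against 1.68% of cells. Its inhibitor *Timp1* was 25.9 times higher (8.41 in the second set), *Itga6*, a laminin receptor subunit, 11.7 times, and *Fn1* (fibronectin) had 14.2 against 3.6, 3.95 times higher. *Mmp9*, *Timp1*, and *Itga6* reached the capture limit only in members, while *Fn1* was captured in 55.5% of reference cells. *Plat*, the tissue plasminogen activator, had 1.81 against 5.76.

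Connective tissue genes, which code mostly for collagens and their partners, went the other way. Of 14 compared, 0 were higher and 11 lower (10 in both sets), with a median ratio of 0.402. *Col3a1* had 11.7 against 71.8 reads per 10000, a ratio of 0.163, and was captured in 74.2% of members against 119 of 119 reference cells. *Col6a2* had 5.36 against 22.9, and *Postn* (periostin) 0.171 against 1.91. *Dcn* (decorin) and *Twist1* did not pass 1.5 times, with ratios of 0.703 and 1.13. The summed level of the list was 2.01 to 431 in members (median 35.6) and 32.0 to 331 in the reference (median 166).

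Of 9 targets of YAP and SRF, which respond to tension and actin, 0 were higher and 4 lower, with a median ratio of 0.707. *Amotl2* had 0.887 against 2.38 and *Thbs1* 2.32 against 4.47 reads per 10000. The chemokine gene *Cxcl12* and the dipeptidase gene *Dpep1* had ratios of 0.0763 and 0.101.

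Relatives of the other rule genes were compared next. Of 4 ABC transporter genes without *Abcb1b*, 3 were higher and 1 lower. *Abcc1* (MRP1) had 1.35 against 0.275 reads per 10000, 4.92 times higher, and *Abcg2* had a ratio of 0.661. *Abcc1* reached the capture limit only in members, and of the 3 genes captured in the reference 2 were higher, of which *Abcc4* (1.91 times) had a ratio of 0.978 with at least 2 reads per rule gene. The closest relative of *Abcb1b*, *Abcb1a*, had 8 reads in 4 members and 0 in the reference. *Cpe* and *Pam*, enzymes that process peptides in dense core vesicles, were 2.06 and 2.35 times higher, but *Cpe* was 1.36 times higher in the second set. Of the granins and their relatives, *Vgf* had 5 reads against 0, *Scg3* 2 against 12, and *Scg5* 30 against 20, while *Chga*, *Chgb*, and *Scg2* were not listed. *Homer1* of the synapse list was 1.88 times higher here and 0.976 times in the second set.

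Among 9 genes of the unfolded protein and integrated stress responses, 4 were higher and 0 lower. Of the 7 captured in at least 10% of reference cells, 2 were higher, and *Vldlr* and *Sesn2* reached the limit only in members. *Vldlr* had 1.56 against 0.174, 8.95 times higher, and *Sesn2*, which is also in the p53 list, was 3.48 times higher. The chaperone *Hspa5* had 19.3 against 14.3, within the threshold. Of 11 glycolysis and hypoxia genes, 6 were higher and 1 lower (3 and 1 in both sets). *Eno1* was 3.63 times higher, and *Adm*, a hypoxia target, had 1.15 against 4.85.

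The next 2 lists, of imprinted genes and of Hmga genes, were written after the values were seen, and their counts are a description. Imprinted genes are expressed from 1 parental copy, and many regulate growth of the embryo. Of 15 compared, 11 were lower and 2 higher in both sets of cells, with a median ratio of 0.191. Of the 15, *H19*, *Zim1*, and *Magel2* reached the capture limit only in the reference and *Cdkn1c* only in members. The 14 captured in the reference, of which 11 were lower and 1 higher, still hold those 3. The count lower is thus partly set by that limit. *Mest* had 0.658 against 5.50 reads per 10000, *Peg3* 1.5 against 9.82, and *Peg10* 2.83 against 14.8. *Mest* was captured in 15% (9.14 to 22.7) against 73.9% (65.1 to 81.6) of cells. *Cdkn1c* (p57), a growth inhibitor, was 1.91 times and *Impact* 2.79 times higher. The summed level of the imprinted list was 4.56 to 90.9 in members (median 34.7) and 7.47 to 393 in the reference (median 93.8).

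Of 5 genes of a list of Hmga, Lin28, and Igf2bp genes with *Ccnd2*, several of which are known targets of the microRNA let-7, 4 were higher and 0 lower. *Igf2bp2*, an RNA-binding protein whose gene Hmga2 is known to regulate, had 1.43 against 0.726, while *Igf2bp3* had 0.479 against 0.626. *Lin28b* had 5 reads in members and 4 in the reference, and *Lin28a* was not listed.

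**Figure D5:**
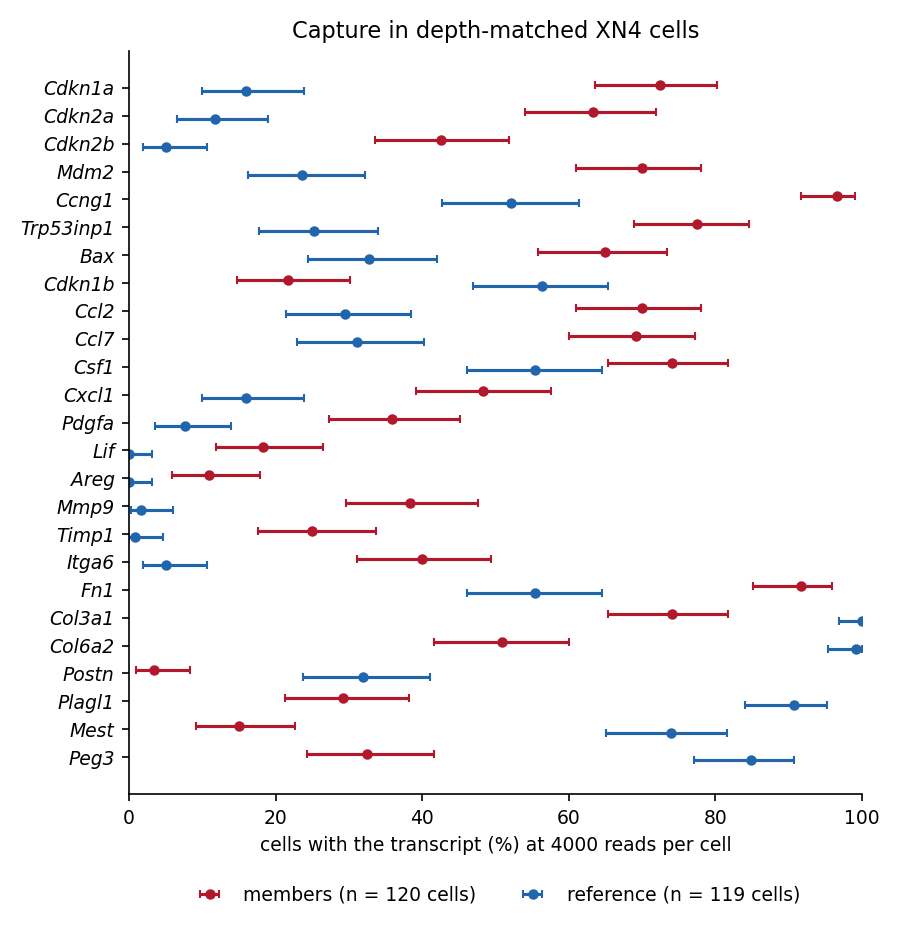
Share of members (red, n = 120 cells) and reference cells (blue, n = 119 cells) with the transcript at 4000 reads per cell for genes of the arrest, secreted factor, matrix, and imprinted groups, with exact 95% intervals for counting error. *Cdkn1a* is at 72.5% against 16%, *Mmp9* at 38.3% against 1.68%, and *Plagl1* at 29.2% against 90.8%.

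Of 12 neural progenitor genes, 8 were listed in the XN4 table and 6 were captured often enough to compare, of which 3 were higher and 0 lower. *Nes* and *Notch1* reached the capture limit only in members, and of the 4 genes captured in the reference 1 was higher. *Nes* had 1.06 against 0.167 reads per 10000, 6.32 times higher (19.4 in the second set), *Notch1* 1.74 against 0.464, and *Vim* (vimentin, also of mesenchymal cells) 26.7 against 12.2. Of the transcription factors of the list, *Zeb2* was captured in 51.7% of members and 47.9% of reference cells, with a ratio of 1.00. *Sox2* had 16 reads in 3 members and 0 in the reference, *Pax6* 4 reads in 3 members and 0, and *Sox1*, *Sox3*, *Fabp7*, and *Hes5* were not listed.

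Of 12 macrophage markers, 5 were listed and 0 reached the capture limit, with *Ptprc* at 0 reads in both groups and *Cd68*, a protein of lysosomes, at 22 reads in 12 members against 8 reads in 3 reference cells. The mean level of *Cd68* was 7.26 times higher (10.9 in the second set), which lies outside the interval of 1.17 to 7.12 for the ratio of its summed reads. The list had a summed level of 0 to 6.90 in members and 0 to 3.51 in the reference. Of 8 endothelial markers 6 were listed, *Vwf* had 0 reads, *Pecam1* had 1 read in members, and the sum was 0 to 3.32 in members and 0 to 20.7 in the reference, nearly all of it from *Emcn*. Of the neuron markers *Nefl* and *Nefm*, neurofilament genes, were 7.29 and 4.11 times higher, and both reached the capture limit only in members. *Snap25* had 0 reads and *Tubb3* 1 read in members. The neuron list summed to 0 to 17.8 in members, with a median of 0.

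Osteopontin is also a marker of bone cells. Of 3 osteoblast genes compared, *Runx2* was 3.20 times higher, *Alpl* had a ratio of 0.189 and *Col1a1* one of 0.383 (0.0505 in the second set), while *Dmp1* had 0 reads in members. Of astrocyte genes, *Sox9* was 2.07 times higher, *Gja1* had a ratio of 0.366, and *S100b* had 0 reads. Of 2 compared oligodendrocyte precursor markers, *Pdgfra* was lower and *Cnp* did not pass 1.5 times. The neural crest list had *Mitf* 3.50 times higher and *Ets1* at 0.792. The epiblast factor *Pou5f1* had 1 read in members. No cell type name was given to the members.

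The rule was applied to all 4 lines after thinning to 4000 reads, on 5 genes in KN1, whose table does not list *Spp1*, and on 6 in the others. *Mki67* and *Top2a* were counted after thinning as well, so some cells with both before thinning are among the nondividing cells. Here differences between lines include differences between libraries. In XN4 it was met by 74 of 2569 nondividing cells (2.88%, 2.27 to 3.6), in XN1 by 109 of 1948 (5.6%, 4.62 to 6.71), in KN1 by 17 of 2367 (0.718%, 0.419 to 1.15), and in CN4 by 15 of 1629 (0.921%, 0.516 to 1.51). The cells that met it held different genes. Of the 74 XN4 cells, 66 had *Spp1*, 33 had *Fosl1*, and 27 had both, while of the 109 XN1 cells 8 had *Spp1*, 8 had *Fosl1*, and 1 had both. None of the 17 KN1 cells had *Fosl1*, and of the 15 CN4 cells 1 had *Spp1*.

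The lines differed in how often single rule genes were captured. *Tnc* was in 3.19% of nondividing XN4 cells but 63.4% of XN1, 74.5% of KN1, and 63.4% of CN4 cells. *Nptx1* was in 3.08% of XN4 and 52.4% of XN1 cells. *Spp1* was in 16.5% of XN4, 1.03% of XN1, and 0.798% of CN4 cells, and it was not listed for KN1, where rare genes are left out of the table. *Hmga2* was in 16% of XN4, 7.19% of XN1, 55.5% of KN1, and 63.4% of CN4 cells. *Tnc*, captured in few XN4 cells, was thus common in XN1, KN1, and CN4. *Hmga2*, captured in XN4 nearly as often as *Spp1*, was more common in KN1 and CN4 and less common in XN1. Between 14 and 19 cell indices of XN4 occurred also in each other line, out of 3927.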

How the data were processed

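For XN4 the authors deposited the read counts of the BD Rhapsody WTA Analysis Pipeline 1.12.1, by gene and cell, on GRCm38 and GENCODE M19. Introns were included, and whether strand was used is not given in the sources used here. For each of the 4 lines they also deposited natural log values, ln(1 + 10000 × reads / total), made with Seurat 4.3.0 (per the labels) after ribosomal protein and mitochondrial genes were removed. Division by the smallest step of a cell gave back its reads, of which 100% were whole within 0.01. The XN4 normalized table held 41539513 reads, and the XN4 table of all reads 140311227. For XN1 and CN4, tables of all reads were not used. Samples were mapped to lines by their titles.

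A level is the mean of reads per 10000 reads of each cell. A ratio of levels can thus lie outside the counting interval for the ratio of summed reads. This held for *Cd68*, *Etv4* (4.22, interval 2.10 to 3.88), and *Egfr* (1.95, interval 1.17 to 1.67), among others. Members and reference were matched 1:1 in 20 strata of reads (seed 1), and cells were thinned to 4000 reads for shares. A ratio of 1.5 in genes captured in at least 10% of either group was counted, and 3 reads were set for a group with 0 to compute ratios for counts and medians, which are no bound. The 15 genes with the highest and the 15 with the lowest ratio that passed 1.5 times in both sets of cells were named, leaving out rule genes and predicted genes, together with genes of 31 lists and 3 lists added later. Some items of the lists are not reported here. The members and the lists were chosen with earlier results of these data known. Positions are from GENCODE release M21 on GRCm38. Python 3.11.15, numpy 2.4.6, scipy 1.17.1, and scikit-learn 1.9.0 were used. The procedure was tested on simulated reads in which cells of a group differed by depth and counting only. Other variation between cells was not covered by that simulation. Alternatives were other cells, cutoffs, rule genes, matching, depths, filters, and thresholds.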

Additional observations from a re-analysis of the deposited data

How the results depend on the processing

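With 1 library for each line, neither replicates left out nor a test could be had. No paired analysis was possible because each line has 1 library. Over 17 alternatives, none of the 30 genes with the highest and lowest ratios changed direction. For the second set of cells this was fixed by their choice. The other alternatives used many of the same cells, in which these genes were chosen for extreme ratios, so a change was unlikely. No median past 1.5 times of a list with at least 3 genes compared changed direction either. The S-phase median of 1.03, within the threshold, was 0.614 in the second set of cells. The share of members (3.89%) was 2.26% with at least 4 of 6 genes, 2.97% with at least 2 reads per gene, 2.88% after thinning, 3.18% without the 5% of cells with the most reads, 3.18% without *Fosl1* in the rule, 2.53% without *Spp1*, and 2.66% without *Ptprn*. The genes higher and lower numbered 2848 and 2583 with no capture filter, 554 and 522 with capture in at least 25%, and 644 and 549 at 2 times, by construction of these filters. Without thinning, the rule was met by 3.89% of XN4, 7.47% of XN1, 0.682% of KN1, and 2.09% of CN4 cells. At 2000 reads it was met by 1.15% of XN4, 1.92% of XN1, 0.177% of KN1, and 0.255% of CN4 cells. Of all 2484 genes past 1.5 times, 248 went the other way in the second set of cells. Of 147 genes of the lists and the text past 1.5 times, 7 changed direction under some alternative, and the cause was not tested. These were *Homer1* (0.976 in the second set of cells), *Cxcl5* (0.986 with at least 4 genes, 0.456 without *Spp1*), *Abcc4* (0.978 with at least 2 reads), *Fosb* (1.02 with dividing cells kept), *Timp3* (0.996) and *Meg3* (1.05) without *Spp1*, and *Hes1* (0.924 without *Spp1*, 0.794 without *Ptprn*). With 10 components, chosen after seeing the data, the mean share of member neighbors was 57.6% in members and 0.392% in the reference. Depth limits genes captured in few cells, and the 3.59% and 3.30% limits above are for 0 counts.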
